A study of Mus musculus with 6 samples.

Results

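The genes described here carry out glycolysis or answer to low oxygen. They are 37 of the 23038 genes listed in the deposited tables and were chosen by symbol, with earlier results of these data known: 4 glucose and lactate transporters, 16 glycolytic enzymes, 3 regulators of glycolytic flux, 2 hypoxia-inducible factors, 5 hydroxylases and 7 other genes known to be induced by hypoxia. All 37 symbols are listed for all 6 libraries. Messenger RNA was sequenced from NSC-34, a mouse motor neuron-like line made by fusing neuroblastoma cells with embryonic spinal cord motor neurons. Of the 6 libraries, 3 came from cells given control siRNA (siNC replicates 1 to 3) and 3 from cells given siRNA against Qk (siQk replicates 1 to 3). Qk encodes the Quaking RNA-binding proteins, which act on splicing and other steps of RNA processing. The siRNA given, control or against Qk, is the only difference the labels give between the groups. NSC-34 is a hybrid tumour line and not a motor neuron. The siQk group used 3 different siRNAs, and no label says which library received which, so a difference between siQk libraries and a difference between siRNAs cannot be told apart. The labels give growth in medium with serum. Other assays of the study used cells differentiated with retinoic acid, and whether the sequenced cells were differentiated is not given in the sources used here.

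Glycolysis splits glucose into pyruvate, and lactate dehydrogenase turns pyruvate into lactate when oxygen or mitochondrial capacity is short. The hypoxia-inducible factors are transcription factors whose alpha subunits are marked for destruction by oxygen-dependent prolyl hydroxylases, and when oxygen falls they accumulate and switch on glucose transporters, most glycolytic enzymes and genes such as Vegfa by binding a short DNA motif, the hypoxia response element. Neurons depend on glucose and on lactate supplied by glia, and mice that lack the hypoxia response element of the Vegfa promoter are known to lose motor neurons.

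Library totals ran from 43000503 to 53565950 counts, and 12665 genes passed a filter on low values (mean log2 CPM, counts scaled to library size, above 0) and were tested. The target itself was the only gene called changed by the quasi-likelihood test of edgeR, whereas the exact and likelihood-ratio tests of edgeR each called 5 genes and DESeq2 19. Levels are in RPKM, reads scaled to exon length and library size. Qk (Entrez 19317) stood at 9.67, 8.18 and 14.9 RPKM in the siNC libraries and 1.39, 1.71 and 1.10 RPKM in the siQk libraries (log2 fold change -2.997, SE 0.34, edgeR quasi-likelihood adjusted p = 0.0149). Without siNC replicate 1 its adjusted p was 0.125 and no gene was called. Markers of the line's identity were mixed. The neuronal genes Tubb3, Gap43, Snap25 and Nefl were above 1 RPKM in every library, as were the motor neuron genes Isl1 and Slc18a3 (1.56 to 2.29 RPKM for the latter), whereas the motor neuron genes Mnx1, Chat and Slc5a7 and the neuronal gene Stmn2 were at or below 0.141 RPKM in every library. Isl1 had 4.83, 4.75 and 4.80 RPKM in siNC and 9.63, 7.80 and 8.33 RPKM in siQk, with no overlap (log2 fold change 0.82, SE 0.097, edgeR adjusted p = 0.9996). The summed markers of astrocytes, oligodendrocytes, microglia, fibroblasts and endothelium each stayed at or below 6.70 RPKM. Replicates are described as independent cultures. There were 2 libraries, siNC replicate 3 and siQk replicate 2, that stood apart from the rest: 30.9% of all tested genes were lowest in the former and 28.8% were highest in the latter.

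None of the glycolysis and hypoxia genes was called changed. Of the 37, 34 were tested, and 0 were called changed by edgeR's quasi-likelihood test at p under 0.01 and adjusted p under 0.1, against 0.0079% of all genes tested. The exact test and the likelihood-ratio test of edgeR and DESeq2 also called 0. At an unadjusted p under 0.05 the count was 0, against 2.89% of all genes, and 1 by each of those other tools, in each case Vegfa. The smallest adjusted p among the members was 0.9996. The directions were evenly split, with 17 members higher and 17 lower in siQk. The members' median was 0.0093 on the log2 scale and that of all genes tested 0.0034, of which 6438 were higher and 6227 lower. In RPKM, 2 tested members (Gapdh and Epas1) had all 3 siQk libraries above all 3 siNC libraries, where 5.35% of all tested genes did, and 0 tested members had them below, where 3.49% of all genes did. These shares of the members lie near the background.

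**Figure D1:**
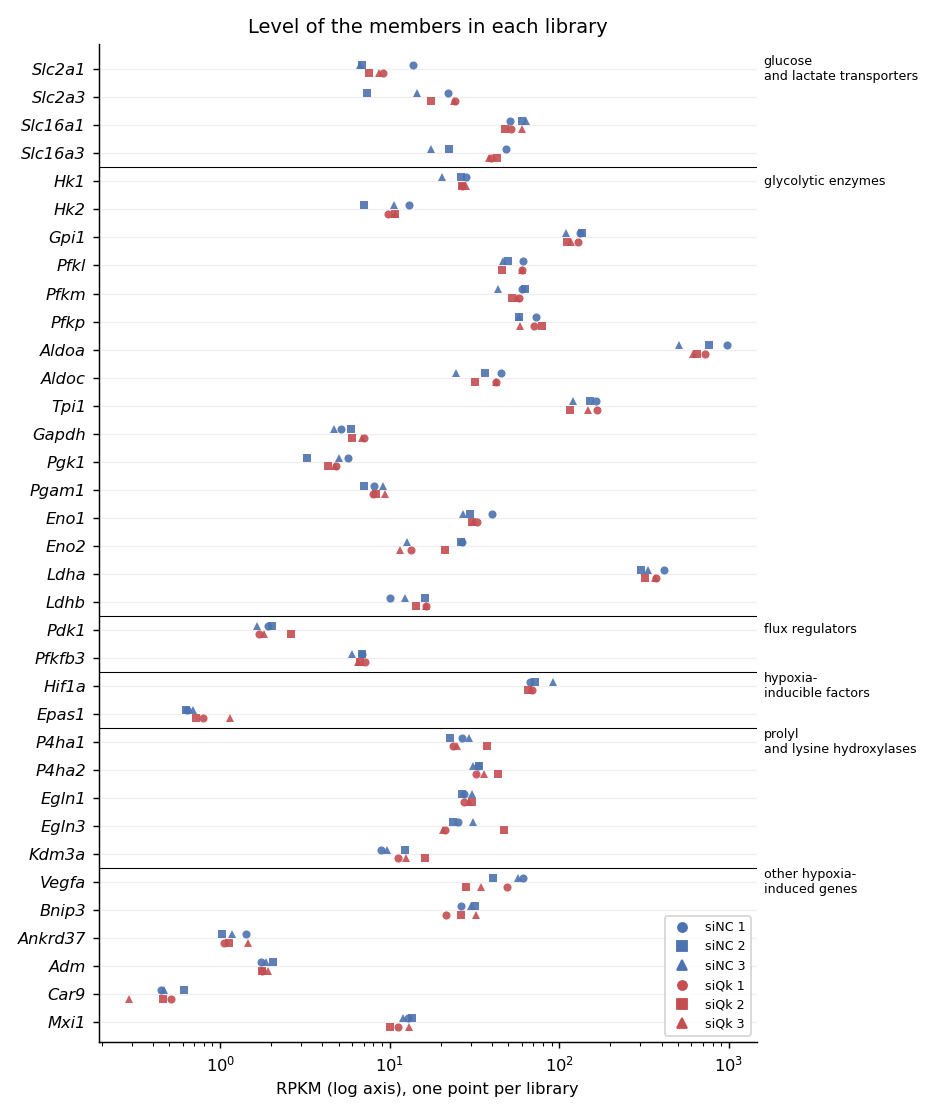
RPKM of the 35 members listed above 0 in every library, in each of the 6 libraries, on a log axis and grouped by role (blue siNC, red siQk; circle, square and triangle mark replicates 1, 2 and 3; Pdk3 and Ndrg1 are left out). Levels run from 0.288 to 0.615 RPKM for Car9 to between 508 and 973 RPKM for Aldoa, and the colours overlap for all plotted members but Gapdh and Epas1.

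**Figure D2:**
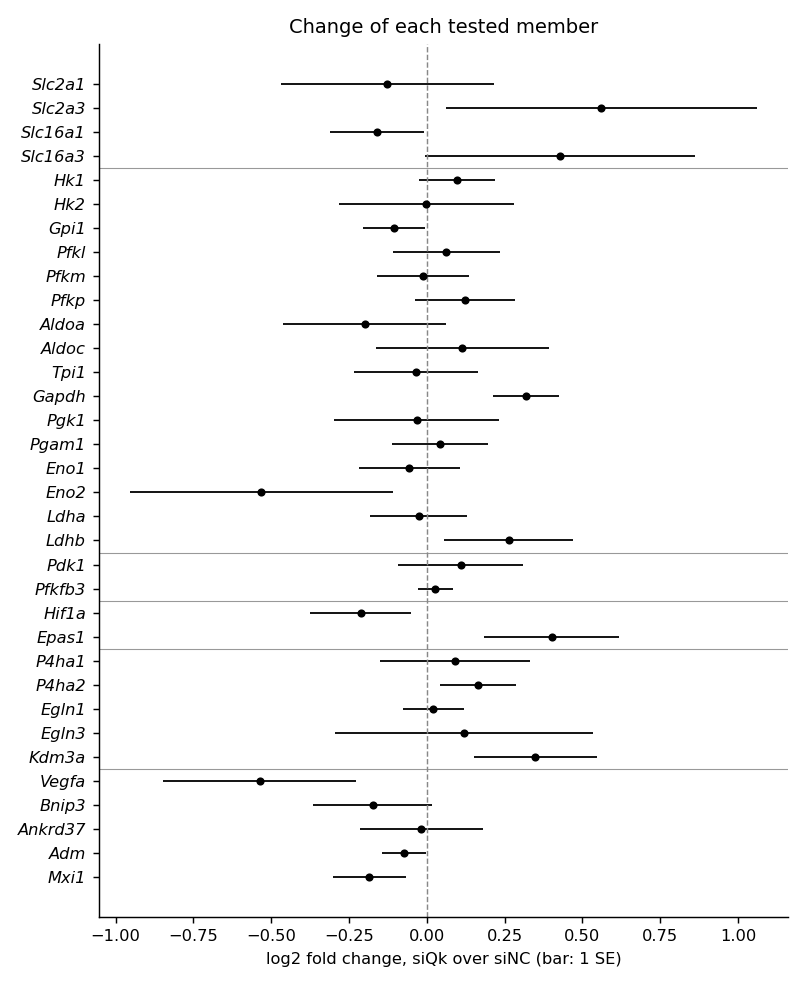
Log2 fold change of siQk over siNC for the 34 tested members, with bars of 1 SE. The values run from -0.54 for Vegfa to 0.56 for Slc2a3, and 17 points lie on each side of 0.

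Of the 4 transporters, 2 had fold changes above 0 and 2 below. Slc2a3 (Entrez 20527, GRCm38 chromosome 6, 122727809 to 122801640, minus strand) encodes the high-affinity glucose carrier that neurons use. It had 22.0, 7.32 and 14.4 RPKM in siNC and 24.3, 17.5 and 24.0 RPKM in siQk. The siNC libraries were widely spread, and siNC replicate 1 lay within the siQk range. Its log2 fold change was 0.56 (SE 0.50, edgeR adjusted p = 0.9996), the highest among the members, and it ran from 0.23 without siNC replicate 2 to 0.97 without siNC replicate 1. Slc16a3 (Entrez 80879, chromosome 11, 120948480 to 120960868, plus strand) encodes the lactate exporter of strongly glycolytic cells. Its RPKM values were 48.6, 22.4 and 17.6 in siNC and 39.5, 42.9 and 38.4 in siQk. The 3 siQk libraries agreed closely, whereas siNC held both the highest and the 2 lowest values. The log2 fold change was 0.43 (SE 0.43, edgeR adjusted p = 0.9996), and it ran from 0.18 without siNC replicate 3 to 0.985 without siNC replicate 1 (edgeR adjusted p = 0.941).

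Slc2a1, the widely expressed basal glucose transporter, had 13.6, 6.90 and 6.63 RPKM in siNC and 9.15, 7.51 and 8.58 RPKM in siQk, so that siNC replicate 1 alone stood high (log2 fold change -0.13, SE 0.34, and 0.28 without it). Slc16a1, which moves lactate and pyruvate in either direction, varied least of the 4 and ran from 47.7 to 63.9 RPKM (log2 fold change -0.16, SE 0.15). Both Slc2a1 and Slc16a3 were highest in siNC replicate 1, the library in which 18.8% of all tested genes were highest.

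Because RPKM is corrected for length, the carriers or isoenzymes of one step can be set against each other within a library. Slc2a3 took 61.8%, 51.5% and 68.5% of the summed RPKM of Slc2a1 and Slc2a3 in siNC and 72.6%, 70.0% and 73.7% in siQk. All 3 siQk libraries lay above all 3 siNC libraries, with means of 60.6% ± 8.57 and 72.1% ± 1.87 (SD, n = 3 each) and a difference of 11.5 percentage points. The two-sided exact permutation test gave p = 0.1, the smallest value that 3 libraries against 3 allow, so no share could pass 0.05. The gap was 6.98 points without siNC replicate 2. Slc16a3 took 48.7%, 27.1% and 21.6% of the lactate carrier pair in siNC and 43.1%, 47.4% and 39.1% in siQk, and these groups overlapped (exact permutation p = 0.4). Shares were computed for 7 steps, and the groups did not overlap for 1 more of them, aldolase. No such share was computed over other genes, and for single-gene levels the groups did not overlap in 5.35% of genes with siQk above and 3.49% with siQk below.

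**Figure D3:**
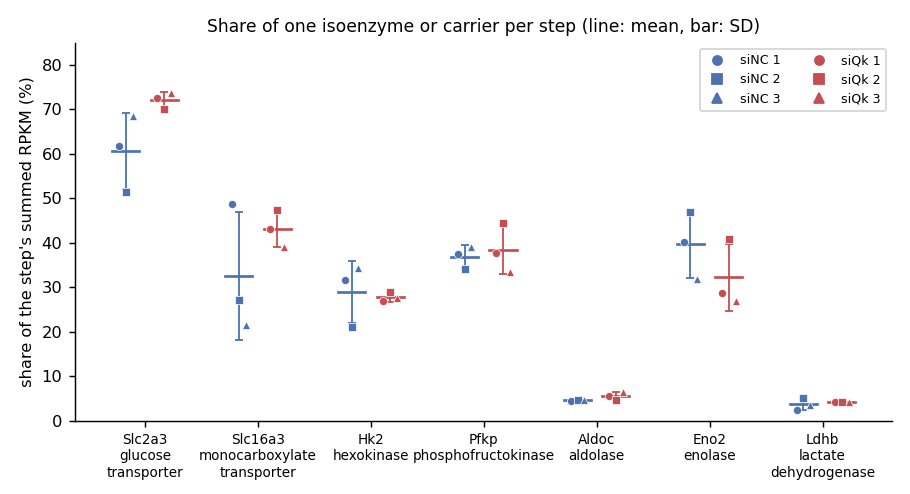
Share of a step's summed RPKM taken by 1 of its carriers or isoenzymes, in percent, per library (points), with the group mean (line) and SD (bar). The Slc2a3 share lies at 70.0% or more in siQk and at 68.5% or less in siNC, the Aldoc share is also higher in all siQk libraries, and the groups of the other 5 steps overlap.

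Among the enzymes of glycolysis, 7 of 16 were higher and 9 lower in siQk, and the median log2 fold change was -0.0072. Hk1, the hexokinase that neurons mainly use to phosphorylate glucose, had 28.2, 26.2 and 20.4 RPKM in siNC and 26.6, 26.6 and 27.97 RPKM in siQk. Hk2, the hexokinase most strongly induced in tumours and by hypoxia, was lower, at 6.99 to 13.0 RPKM, and its group means differed by little (10.2 ± 3.03 and 10.4 ± 0.557 RPKM, SD, n = 3 each). Gpi1, which turns glucose 6-phosphate into fructose 6-phosphate, ran from 109 to 137 RPKM.

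Phosphofructokinase, the main control point of the pathway, had mRNA for all 3 of its subunits at like levels. The siNC means were 52.3 ± 7.36 RPKM for the liver-type subunit Pfkl, 55.3 ± 10.4 for the muscle-type subunit Pfkm and 62.7 ± 8.65 for the platelet-type subunit Pfkp (SD, n = 3), and the ranges of the 3 subunits over the siNC libraries overlapped. Each subunit took between 25.9% and 44.4% of their summed RPKM in every library. Their log2 fold changes were 0.06, -0.01 and 0.12, with SEs from 0.15 to 0.17.

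Aldolase, which splits fructose 1,6-bisphosphate, supplied the most abundant member. Aldoa, the muscle-type form, had 973, 764 and 508 RPKM in siNC and 721, 646 and 612 RPKM in siQk. The siNC libraries spanned the whole siQk range on both sides (log2 fold change -0.20, SE 0.26). Aldoc, the brain-type form, had 45.5, 36.3 and 24.6 RPKM in siNC and 42.4, 31.8 and 42.4 RPKM in siQk. Its share of the aldolase RPKM was 4.46%, 4.54% and 4.62% in siNC and 5.55%, 4.69% and 6.47% in siQk, with no overlap (exact permutation p = 0.1, the smallest possible). The siNC shares lay close together although the siNC libraries held both extremes of each aldolase, with highest-to-lowest RPKM ratios of 1.92 for Aldoa and 1.85 for Aldoc. Tpi1, which interconverts the triose phosphates, ran from 115 to 167 RPKM.

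Gapdh and Epas1 were the tested members whose groups did not overlap in level. Gapdh (Entrez 14433, chromosome 6, 125161715 to 125166467, minus strand) encodes the dehydrogenase that oxidises glyceraldehyde 3-phosphate, and is widely used as a reference gene in quantitative PCR, in this study too. It had 5.13, 5.90 and 4.69 RPKM in siNC and 7.05, 5.98 and 6.88 RPKM in siQk. The lowest siQk library exceeded the highest siNC library by less than 0.1 RPKM. The log2 fold change was 0.32 (SE 0.11, edgeR adjusted p = 0.9996). Its level is low for the pathway: it rested on 241 to 384 counts per library, whereas Aldoa had at least 38540. Actb, another common reference gene, stood at 1083 to 1419 RPKM.

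The low listed level of Gapdh belongs to a wider pattern among the enzymes of the lower pathway. Pgk1, which makes the first ATP of glycolysis, was listed at 3.24 to 5.67 RPKM, and Pgam1, the phosphoglycerate mutase that follows it, at 7.06 to 9.38 RPKM. Other steps around them were listed higher, with Tpi1 at 115 to 167 RPKM before them, Eno1 at 26.9 to 39.8 and Eno2 at 11.4 to 26.6 RPKM directly after them, and pyruvate kinase (Pkm, which is no member) at 412 to 472 RPKM at the end of the pathway. Gapdh is known for its many processed pseudogenes in the mouse genome. When all 75-base stretches of the transcripts in the GENCODE M21 annotation were compared, 75 bases being the read length, 32.5% of those of Pgk1, 44.5% of those of Gapdh and 59.4% of those of Pgam1 were held by no other annotated gene. Gapdh shared a stretch with 121 other genes, 111 of them pseudogenes, and Pgk1 and Pgam1 with 4 and 2 pseudogenes. In contrast 97.8% of Tpi1, 96.9% of Ldha and 99.1% of Aldoa was unique, although unique enzymes were also found at low levels, such as Hk2 (100% unique, 6.99 to 13.0 RPKM).

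Enolase has a copy of this kind that is itself listed at a high level. Eno1, the general isoform, was 55.7% unique and had 39.8, 29.7 and 26.9 RPKM in siNC and 32.7, 30.7 and 30.8 RPKM in siQk. A near-identical copy of it (Entrez 433182, listed as Gm5506 and named Eno1b by RefSeq) was listed at 69.6 to 92.7 RPKM, which is 2.26 to 2.63 times the Eno1 value in the same library, although only 19.4% of its own stretches were unique. The split of reads between the copies is therefore uncertain, and with it the level of Eno1. In all, 5 members were under 60% unique (Pgk1, Gapdh, Eno1, Pgam1 and Bnip3), as were 9.26% of 21845 protein-coding genes, and 18 members were unique throughout. Low uniqueness did not always go with a low level, since Bnip3 stood at 21.4 to 32.2 RPKM and the Eno1 copy higher still. Whether shared sequence affected the listed levels was not tested, and the handling of reads that match several places is not given in the sources used here. Fold changes compare each gene with itself, but those of these 5 genes describe only the reads assigned to them.

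**Figure D4:**
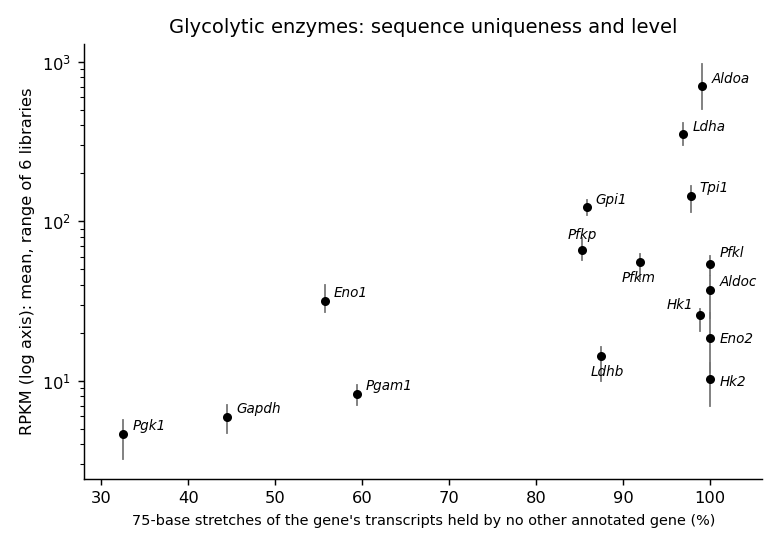
Level of the 16 glycolytic enzymes (RPKM on a log axis, point for the mean and line for the range of the 6 libraries) against the percent of their 75-base transcript stretches held by no other annotated gene. Pgk1, Gapdh and Pgam1 lie at the lower left, under 60% unique and under 10 RPKM, and Aldoa, Ldha and Tpi1 at the upper right.

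Eno2 (Entrez 13807, chromosome 6, 124760053 to 124769673, minus strand) encodes the neuron-specific enolase, and all of its transcript sequence was unique. It had 26.6, 26.2 and 12.6 RPKM in siNC and 13.2, 21.2 and 11.4 RPKM in siQk. Within each group the values fell apart: siNC replicates 1 and 2 and siQk replicate 2 were high and the other 3 libraries were low. Its log2 fold change was -0.53 (SE 0.42, edgeR adjusted p = 0.9996). Without siNC replicate 3 and siQk replicate 2, the libraries that stood apart over all genes, the groups did not overlap, as was so for 37.3% of all genes, and the value was -1.09 (edgeR adjusted p = 0.732), whereas it was -0.36 without siNC replicate 1. Its share of the Eno1 and Eno2 RPKM overlapped between groups (exact permutation p = 0.3), and that share carries the uncertainty of Eno1.

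Lactate dehydrogenase mRNA was mostly that of the A type. Ldha, the form induced by hypoxia and known for turning pyruvate into lactate, had 414, 303 and 335 RPKM in siNC and 369, 318 and 365 RPKM in siQk, the second highest level among the members. Ldhb, the form typical of oxidative tissues, ran from 9.97 to 16.3 RPKM and made up 2.35% to 5.08% of the pair. The siQk libraries held nearly one Ldhb share, 4.24%, 4.28% and 4.29%, in the middle of the siNC values of 2.35%, 5.08% and 3.55%. Neither gene passed the test, with log2 fold changes of -0.03 (SE 0.16) and 0.26 (SE 0.21).

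Of the regulators of flux, Pfkfb3, which makes the activator of phosphofructokinase, was the steadiest of the tested members by its error. It stayed between 5.96 and 7.14 RPKM (log2 fold change 0.03, SE 0.06). Pdk1, the kinase that shuts pyruvate out of the mitochondrial cycle, had 1.92, 2.02 and 1.65 RPKM in siNC and 1.69, 2.62 and 1.81 RPKM in siQk, with siQk replicate 2 highest. Pdk3, a kinase of the same family, is listed with 0 counts in every library.

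Of the 16 enzymes, 9 were highest in siNC replicate 1, against 18.8% of all tested genes, and 8 were lowest in siNC replicate 3, against 30.9%. For each library the log2 deviation from each gene's mean over the siNC libraries was taken. Its median over the 16 was 0.22 in siNC replicate 1 and -0.18 in siNC replicate 3, and between -0.05 and 0.09 in the siQk libraries. The siQk medians thus lay within the range of the siNC medians.

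**Figure D5:**
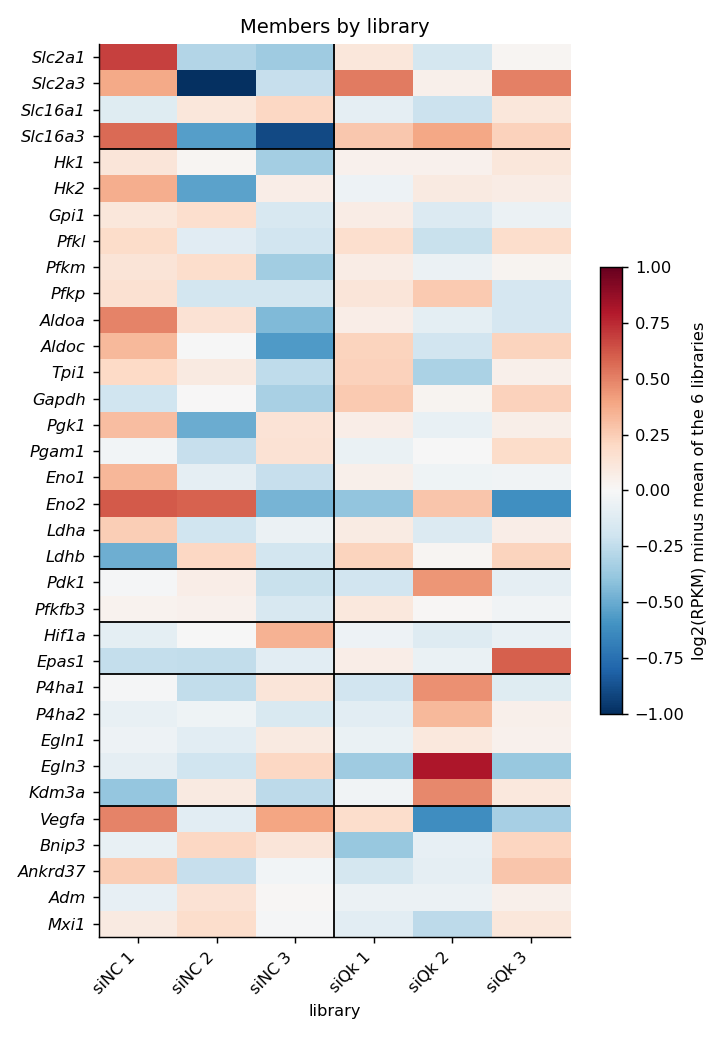
Log2 RPKM of the 34 tested members minus the mean of the 6 libraries (red above, blue below), with libraries in columns and members in rows grouped by role. Most enzymes are red in siNC replicate 1 and blue in siNC replicate 3, and the 5 hydroxylases (P4ha1 to Kdm3a) are red in siQk replicate 2.

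The hypoxia-inducible factors themselves differed widely in abundance. Hif1a, the oxygen-labile subunit of the ubiquitous factor, had 66.8, 71.3 and 91.0 RPKM in siNC and 68.8, 65.3 and 67.8 RPKM in siQk. The siQk libraries lay at the lower end of siNC (log2 fold change -0.21, SE 0.16), and the value was -0.04 without siNC replicate 3. Control of this protein is known to act mainly on its stability, which RNA does not show. Epas1 (Entrez 13819, chromosome 17, 86753700 to 86833410, plus strand) encodes the paralogous subunit best known from endothelium. It had 0.635, 0.631 and 0.695 RPKM in siNC and 0.787, 0.715 and 1.13 RPKM in siQk. The groups did not overlap, siQk replicate 3 stood above the other 5 libraries, and the log2 fold change was 0.40 (SE 0.22, edgeR adjusted p = 0.9996) and 0.16 without that library. Its counts were 160 to 280 per library.

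The 5 member hydroxylases were all highest in the same library, siQk replicate 2. Among related enzymes outside the members, Plod1, Jmjd6 and P4hb, the partner subunit of P4ha1 and P4ha2, were also highest there, whereas Egln2, Hif1an, Kdm4b and Kdm4c were highest in siNC libraries and Plod2 was lowest in siQk replicate 2. Egln3, a prolyl hydroxylase that marks hypoxia-inducible factors for destruction and is itself induced by them, had 25.3, 23.5 and 31.1 RPKM in siNC and 21.04, 47.1 and 20.7 RPKM in siQk. In siQk replicate 2 it was 1.94 times the mean of the other 5 libraries, whereas the remaining 2 siQk libraries were the lowest of all 6. Its log2 fold change of 0.12 (SE 0.41) turned to -0.38 without siQk replicate 2.

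Kdm3a, a histone lysine demethylase induced by hypoxia, had 8.82, 12.3 and 9.61 RPKM in siNC and 11.2, 16.1 and 12.4 RPKM in siQk. Its highest siNC library lay among the siQk values (log2 fold change 0.35, SE 0.20, edgeR adjusted p = 0.9996). P4ha1 and P4ha2, the catalytic subunits of the enzyme that hydroxylates collagen prolines, reached 37.2 and 43.5 RPKM in siQk replicate 2 and stayed from 22.7 to 29.3 and from 31.1 to 35.8 RPKM in the other 5 libraries. Egln1, the main oxygen sensor of the family, varied least of the 5, at 26.5 to 30.7 RPKM. All 5 log2 fold changes were positive, from 0.02 to 0.35, and none passed the test. Without siQk replicate 2 those of P4ha1, Egln1 and Egln3 were negative (-0.145, -0.02 and -0.38). Over all tested genes 28.8% were highest in siQk replicate 2, the deepest library, so that this shared peak is not separated from what that library did as a whole, and it stands in 1 of 3 siQk libraries.

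Whether these genes carry the motif of the hypoxia-inducible factors near their start was read from the RefSeq promoter windows of GRCm38.p6, which span 250 bases before to 50 after each annotated start. Windows existed for 34 of the 37 members (none for Epas1, Ndrg1 and Slc2a3). The motif core ACGTG, on either strand, was present in 24 of these 34 genes (70.6%), in 29.6% of the tested genes and in 21.8% of all genes with a window. With a second known core, GCGTG, counted as well, the shares were 91.2%, 68% and 46.7%. Counted by window, since some genes have several, ACGTG was in 54.9% of 51 member windows, 25.5% of windows of tested genes and 19.6% of all windows. The members were chosen as genes that carry out glycolysis or answer to hypoxia, so a high share is no independent result. A match is a description of the letters and not a site in use. The 3 members with a window and neither core were Eno2, Tpi1 and Gpi1.

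The stretches below show the motif in the 5 hydroxylases, which peaked in the same library, and in Slc16a3, Bnip3 and Ldha, members with several matches. Each is a stretch of 60 bases within the 250 before a start annotated by RefSeq, 5′ to 3′ on the gene's strand, with matches to either core in capitals. The RefSeq starts of Egln3 and Ldha were not found within GENCODE M21 transcripts. The stretches of P4ha2, Kdm3a, Slc16a3 and Ldha lie inside the span that GENCODE gives the gene, and that of Egln1 does in part. Capitals that begin with CAC are a core read on the other strand, and in runs of 6 capitals a match on each strand overlap.
Egln1 (chr8:124949291-124949350, minus strand): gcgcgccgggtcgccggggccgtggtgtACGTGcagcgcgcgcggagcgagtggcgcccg
Egln3 (chr12:54204065-54204124, minus strand): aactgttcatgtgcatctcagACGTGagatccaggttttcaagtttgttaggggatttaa
P4ha1 (chr10:59323236-59323295, plus strand): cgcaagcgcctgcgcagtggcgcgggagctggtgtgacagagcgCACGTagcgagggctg
P4ha2 (chr11:54100818-54100877, plus strand): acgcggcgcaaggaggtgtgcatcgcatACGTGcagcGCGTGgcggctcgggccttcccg
Kdm3a (chr6:71632918-71632977, minus strand): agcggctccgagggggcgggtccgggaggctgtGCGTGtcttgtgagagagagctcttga
Slc16a3 (chr11:120949007-120949066, plus strand): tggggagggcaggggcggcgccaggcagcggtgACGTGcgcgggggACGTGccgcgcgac
Bnip3 (chr7:138909582-138909641, minus strand): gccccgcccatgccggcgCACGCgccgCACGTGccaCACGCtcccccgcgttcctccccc
Ldha (chr7:46845742-46845801, plus strand): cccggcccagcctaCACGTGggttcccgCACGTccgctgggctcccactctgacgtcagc

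Of the 5 hydroxylases, 4 held ACGTG in a window and Kdm3a held GCGTG alone. The highest-to-lowest RPKM ratios over the 6 libraries were 2.28 for Egln3 and 1.16 for Egln1, and 1.37 and 1.504 for Ldha and Bnip3.

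Of the 7 remaining hypoxia-induced genes, 5 were tested. All 5 had log2 fold changes below 0 in the main fit (median -0.17), and none passed the test. Ankrd37 was at 0.01 when libraries were scaled by total counts and above 0 in some refits without a library. By library, the median log2 deviation of the 5 from the siNC mean was 0.0035, 0.092 and -0.013 in siNC. In siQk it was -0.173, -0.167 and 0.0295, so the groups overlapped. Vegfa (Entrez 22339, chromosome 17, 46016993 to 46032369, minus strand) encodes the growth factor of blood vessels, which also sustains motor neurons. It had 60.9, 40.4 and 56.9 RPKM in siNC and 48.8, 28.1 and 34.4 RPKM in siQk. The 2 lowest libraries were siQk and the 2 highest siNC, and siQk replicate 1 lay above siNC replicate 2. Its log2 fold change was -0.54 (SE 0.31, edgeR adjusted p = 0.9996), the lowest among the members, and it stayed negative in all refits, from -0.79 without siQk replicate 1 to -0.28 without both libraries that stood apart.

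Bnip3, which drives removal of mitochondria, had 26.3, 32.0 and 30.2 RPKM in siNC and 21.4, 26.2 and 32.2 RPKM in siQk (log2 fold change -0.17, SE 0.19), with 56.3% of its transcript sequence unique. Mxi1, an antagonist of Myc, ran from 10.1 to 13.6 RPKM (log2 fold change -0.18, SE 0.12). Adm, the vasodilator peptide adrenomedullin, stayed between 1.73 and 2.03 RPKM, and Ankrd37, a small hypoxia-induced ankyrin repeat protein, between 1.02 and 1.45 RPKM. Car9, the carbonic anhydrase widely used as a marker of hypoxia, was below the filter at 0.288 to 0.615 RPKM, and Ndrg1 had 0 to 5 counts per library, too few to compare although its siQk values all lay above its siNC values.

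The rest of the pathway was read from 2 further lists. Of 44 other genes of glucose and pyruvate metabolism, 36 were tested, 22 higher and 14 lower in siQk (median log2 fold change 0.14, from 0.0537 without siNC replicate 3 to 0.168 without siNC replicate 1). Among them 0 were called or reached an unadjusted p under 0.05 by edgeR's quasi-likelihood test. Of 57 other genes of the hypoxia response, 46 were tested, 23 in each direction (median 0.0071), and 0 were called. At an unadjusted p under 0.05 there were 2, near the 2.89% of all genes, both with values below 0: Stc2, the glycoprotein stanniocalcin 2, at 26.1, 19.3 and 24.3 RPKM in siNC and 16.8, 13.5 and 16.98 RPKM in siQk (log2 fold change -0.59, SE 0.19), and Gys1, the glycogen synthase of muscle and brain, whose mean was 26.8 ± 4.26 RPKM for siNC and 18.98 ± 4.82 for siQk (SD, n = 3 each, log2 fold change -0.53, SE 0.29). Both had an adjusted p of 0.9996 by edgeR, and both were lowest in siQk replicate 2.

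The integrated stress response, of which Vegfa is also a known target, was read beside it. Of 20 genes of that response 19 had log2 fold changes below 0 (median -0.42), and 7 had an unadjusted p under 0.05 (2.89% of all genes did), though 0 were called by edgeR's quasi-likelihood test. Of the 20, 17 were lowest in siQk replicate 2, as were Vegfa and 21.8% of all genes. In siNC replicates 1 and 3, 11 and 9 of them were highest, where 18.8% and 16.5% of all genes were. By library, their median log2 deviation from the siNC mean was 0.215, -0.308 and 0.164 in siNC. In siQk it was -0.206, -0.7 and -0.132, so siNC replicate 2 lay below siQk replicates 1 and 3. Without siNC replicate 3 and siQk replicate 2 the median log2 fold change was -0.081. Of 20 cell cycle genes, 17 had log2 fold changes above 0 (median 0.20, and 0.103 to 0.257 with a library left out). Among them 3 had an unadjusted p under 0.05 and 0 were called. In siQk replicate 2, the library in which the hydroxylases peaked, 14 were highest (28.8% of all genes were). Their library medians overlapped, at -0.129, 0.16 and 0.0205 in siNC and 0.0599, 0.356 and 0.239 in siQk. The part of either list in the members' values was not tested.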

How the data were processed

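NSC-34 cells were profiled by poly-A RNA sequencing in 3 siNC and 3 siQk libraries (TruSeq version 2 kit, 75-base read pairs). Reads had been aligned with OLego to a build the labels name mm10, though the study's methods also name an older build number, and counted with Quantas. The authors deposited, per gene, an expected count, of which 21.9% to 22.9% per library were not whole, and an RPKM that the deposited counts, exon lengths and column totals rebuild.

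Counts were rounded, scaled by TMM (factors 0.956 to 1.02) and tested over all 12665 genes kept with edgeR 4.0.16 in R 4.3.3 (quasi-likelihood F test, Benjamini-Hochberg adjustment). SEs come from TMM-scaled log2 CPM with a prior count of 2. Levels are RPKM as deposited, compared by two-sided exact permutation over 20 arrangements (smallest p 0.1). Positions are from GENCODE M21. Alternatives were other scalings, filters and tests (DESeq2 1.42.0 among them), a replicate block and libraries left out. The fit was tested on simulated counts and the exact permutation test on values with known answers, whereas the sequence searches were not tested in this way. Full statistics were given for members with non-overlapping groups and the 5 with the largest absolute fold change. Members and lists were chosen with earlier results of these data known. The 3 libraries per group limit precision, as do the few counts of the lowest members.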

Additional observations from a re-analysis of the deposited data

How the results depend on the processing

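No member was called under any of the 16 alternatives. All genes called numbered 5 by the edgeR exact and likelihood-ratio tests, 19 by DESeq2, and 0 to 1 with a library left out (0 without siNC replicate 1, where Qk was at -3.09). Members at an unadjusted p under 0.05 numbered 1 (Vegfa) with DESeq2 size factors, no filter, filterByExpr, the exact test, the likelihood-ratio test and DESeq2, and 0 to 2 with a library left out. Replicate numbers did not pair the libraries (correlations 0.213, 0.018 and -0.17). With the replicate block 3 members (Slc2a3, Eno2, Vegfa) were under 0.05, the median of the other hypoxia genes was 0.067, Hk2 was at 0.0456 and Pgk1 at 0.00831. By total counts Hk2 was at 0.0276, Pfkm at 0.00715 and Ankrd37 at 0.00725, and by upper quartile Hk2 was at 2.99e-05. Across refits leaving out libraries the median of the members ran from -0.0336 to 0.104, non-overlapping members from 4 to 10 (background 14.3% to 22.9% of all genes), the stress response median from -0.569 to -0.217 and the Eno2 share difference from -11.7 to -3.78 points. Without both libraries that stood apart these were 10 members (37.3% of all genes), -0.0814 and -15.6 points, with Eno2 alone under 0.05, and Pfkp (-0.00379, else up to 0.236), Pdk1 (-0.162) and Slc16a1 (0.0171, else down to -0.263) also changed sign. Signs changed in 50 of 544 refits, for 20 of 34 members, none with an absolute log2 fold change over 0.20; the cause was not tested. With a library left out the log2 fold changes that changed sign ran as follows: Slc2a1 -0.307 to 0.284, Hk2 -0.232 to 0.2, Pfkm -0.14 to 0.0553, Aldoa -0.398 to 0.0317, Tpi1 -0.161 to 0.101, Pgk1 -0.256 to 0.127, Eno1 -0.147 to 0.121, Ldha -0.144 to 0.102, Egln1 -0.047 to 0.107, Ankrd37 -0.177 to 0.112, Pgam1 -0.0733 to 0.167, P4ha1 -0.145 to 0.206, Hk1 -0.00686 to 0.189, Aldoc -0.0737 to 0.33, Pfkfb3 -0.0117 to 0.0534, Pfkl -0.0113 to 0.18, Pdk1 -0.112 to 0.227, Egln3 -0.383 to 0.314. Among tested members depth is lowest for Ankrd37, Adm, Epas1, Gapdh and Pgk1, which had 520 counts or fewer in every library.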
